A study of Mus musculus with 32 samples.

Results

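Mapk4, Mapk6 and Mapkapk5 encode the atypical mitogen-activated protein kinases ERK4 and ERK3 and their effector kinase MK5. They were taken from the table of estimated gene counts by symbol, and are 3 of its 55103 genes. Mapk4 was listed because it was higher after photons, and the other two because they belong to the same route. The set was thus chosen by the photon-irradiated and photon control values of Mapk4, and the members' photon values below are a description without a test.

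The libraries came from bulk RNA of 32 tumours of KPC36, a mouse pancreatic cancer line, in 4 groups of 8. One group was irradiated with carbon ions, a particle beam that deposits most of its energy near the end of its path, and one with photons, the usual beam of radiotherapy. Each beam had its own untreated controls, named here the carbon-ion controls and the photon controls. All groups shared the cell line and the tumour tissue. The sources used here do not give the dose, the host strain or age, or the genotype of the line. The design names collection at days 4 and 7, but the day of a single library was not given, so both days may be mixed in a group. Nothing in the labels says whether each library came from its own mouse, so p-values measure the spread between these libraries, which may in part be technical. Among the carbon-ion libraries 4 controls and 3 irradiated ones have titles that begin with D, the other 25 libraries have M, and what the letters stand for is not stated. The highest title number of a photon control, 48, is below the lowest of a photon-irradiated library, 95, so anything tied to this numbering and the photon difference cannot be told apart.

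Library totals lay between 13891863 and 71645903 estimated counts, with a median of 34856367. Levels are in CPM, which divides a count by the TMM-scaled library size (TMM, trimmed mean of M values), so that libraries of different depth can be compared. All 3 members passed the filter on low counts, as did 20474 genes in all. The 10 epithelial markers, among them the keratins of pancreatic duct cells, were measured in every group and summed to between 2426 and 5426 CPM. Markers of fibroblasts, endothelium, macrophages and, in some libraries, skeletal muscle were present too. In such bulk tissue, fewer cells of a type and less RNA per cell cannot be told apart.

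Conventional MAP kinases such as ERK1 (Mapk3) are switched on when a MAP kinase kinase phosphorylates a threonine and a tyrosine in their activation loop. ERK3 and ERK4 carry the motif serine-glutamate-glycine there, with a single acceptor site that group I p21-activated kinases (Pak1, Pak2 and Pak3) phosphorylate. Both bind MK5, a relative of the p38-activated kinases MK2 and MK3, and phosphorylate the threonine of its activation loop. ERK3 is a short-lived protein, and MAPK4 has been described as an activator of AKT in tumour cells.

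The coding sequences below show the difference that sets the atypical kinases apart. They are read 5′ to 3′ on the coding strand from GENCODE M21 transcripts on GRCm38, and capitals mark the codons of the activation-loop motif, or of the phosphorylated threonine in Mapkapk5.
Mapk6: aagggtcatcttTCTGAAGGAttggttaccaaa
Mapk3: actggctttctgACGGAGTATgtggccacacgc
Mapkapk5: ggtgatttgatgACAccccagtttacc
The Mapk6 stretch lies at chr9:75395625-75397581 on the minus strand and spans the junction of exons 2 and 3. In Mapk3 the stretch is in exon 4 (chr7:126763446-126763478, plus strand). The Mapkapk5 stretch is in exon 7 (chr5:121534356-121534382, minus strand). In the Mapk6 line the capitals read serine, glutamate, glycine, and in the Mapk3 line threonine, glutamate, tyrosine.

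Mapk4 (ENSMUSG00000024558.12) occupies chr18:73928486-74065359, Mapk6 (ENSMUSG00000042688.16) chr9:75369062-75410005 and Mapkapk5 (ENSMUSG00000029454.15) chr5:121525038-121545905, all on the minus strand of GRCm38. Mapk4 overlaps the non-coding gene D730045A05Rik on the opposite strand, which averaged 4.60 counts a library, and Gm9925, at 0.194. How the counting handled strand is not given in the sources used here. Mapkapk5 overlaps Adam1a and Gm42878 on its own strand, which averaged 203.5 and 208.0 counts, so its level carries that uncertainty. Mapk6 overlaps only pseudogenes, none above an average of 0.885 counts.

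Per kilobase of annotated exon, the atypical kinases differed widely in level. In the carbon-ion controls Mapk6 averaged 30.2 ± 4.69 CPM per kilobase (SD, n = 8), a level near that of Pak2 (31.0) and below that of Mapk3 (73.6) on the same scale. Mapkapk5 averaged 9.56 ± 0.935 CPM per kilobase, below its relative Mapkapk2 at 38.8 and above Mapkapk3 at 4.98. Mapk4 was the scarcest of the members, at 1.71 ± 0.555 CPM per kilobase. Among the regulators, Pak3 was lower still, at 0.692 CPM per kilobase. The order Mapk6, Mapkapk5, Mapk4 held in the means of all 4 groups.

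**Figure D1:**
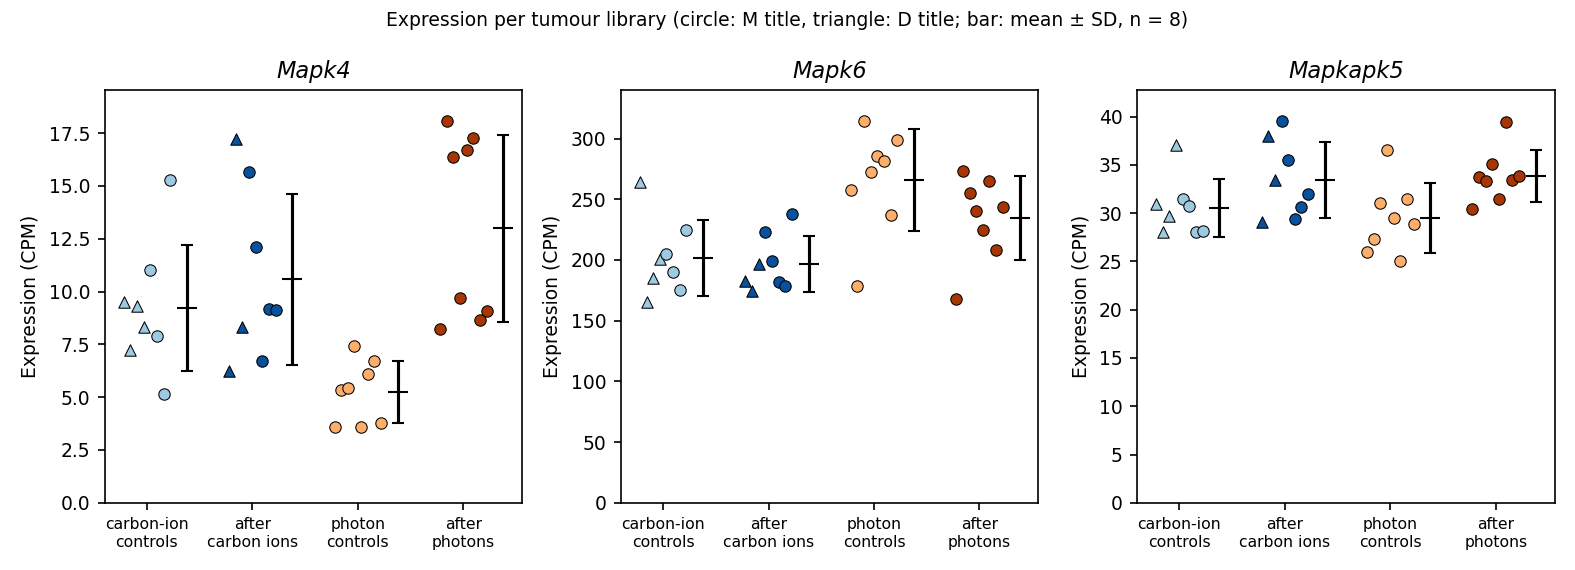
CPM of Mapk4, Mapk6 and Mapkapk5 in each of the 32 libraries, by group, with circles for M titles, triangles for D titles and bars for mean and SD. All photon-irradiated libraries lie above all photon controls for Mapk4 (8.25 CPM against 7.44 CPM at the nearest), and the other pairs of groups overlap.

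Mapk4, the ERK4 gene, was lowest in the photon controls and highest in the photon-irradiated libraries. In the photon controls its lowest value was 3.58, its median 5.38 and its highest 7.44 CPM (mean 5.24 ± 1.48, SD, n = 8). After photons the lowest was 8.25, the median 13.0 and the highest 18.1 CPM (mean 13.0 ± 4.43, SD, n = 8). Each of the 8 irradiated libraries thus exceeded each control. The log2 difference was 1.31 (standard error 0.24). Among all 20474 genes, 97 (0.474%) had photon groups that did not overlap, and 42 (0.205%) had all photon-irradiated libraries above all photon controls, and since Mapk4 was chosen for this rise, its place among them is no test.

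The photon-irradiated libraries were uneven. Mapk4 lay between 8.25 and 9.67 CPM in 4 of them and between 16.4 and 18.1 CPM in the other 4, with none between. Both levels occurred among the 4 lower title numbers, from 95 to 98, and among the 4 higher ones. Which library belongs to which day is not given, so a split by day was not tested.

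In the carbon-ion arm the Mapk4 values of controls and irradiated libraries overlapped. The carbon-ion controls had a lowest value of 5.16, a median of 8.82 and a highest of 15.3 CPM (mean 9.21 ± 2.996, SD, n = 8). The carbon-ion irradiated libraries had a lowest value of 6.22, a median of 9.16 and a highest of 17.2 CPM (mean 10.6 ± 4.06, SD, n = 8). Of the irradiated libraries, 5 of 8 lay above the control median. The log2 difference of 0.20 had a standard error of 0.23 and did not pass (edgeR quasi-likelihood test, adjusted p = 0.997). With 1 library left out it ranged from 0.063 (without carbon-ion irradiated replicate 2) to 0.34 (without carbon-ion control replicate 8). No gene passed in this comparison, so percent called was 0, with 1177 genes (5.75%) at an unadjusted p under 0.05 and 29 genes passing by DESeq2 and 0 by limma-voom.

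The carbon-ion difference of Mapk4 was similar in size under both title letters. Among M titles the irradiated minus control difference in mean log2 CPM was 0.15 (5 against 4 libraries, exact two-sided permutation p = 0.698). Among D titles it was 0.17 (3 against 4 libraries, exact two-sided permutation p = 0.743). These designs could reach a p of 0.00794 and 0.0286 at the lowest.

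The order of the Mapk4 means was photon controls, carbon-ion controls, carbon-ion irradiated and photon-irradiated. Neighbours in that order overlapped in each case. The control groups differed by a log2 value of 0.82 (standard error 0.23), with 6 of 8 carbon-ion controls above the highest photon control. The irradiated groups differed by -0.30 (standard error 0.23, carbon-ion minus photon), which turned to 0.15 with the neutrophil score as a term. These comparisons share libraries with the photon comparison and are given without a test. The carbon-ion effect minus the photon effect was -1.12 with a standard error of 0.33, and -0.59 with the neutrophil score as a term. The photon controls enter both the photon difference of Mapk4 and its difference between control arms.

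**Figure D2:**
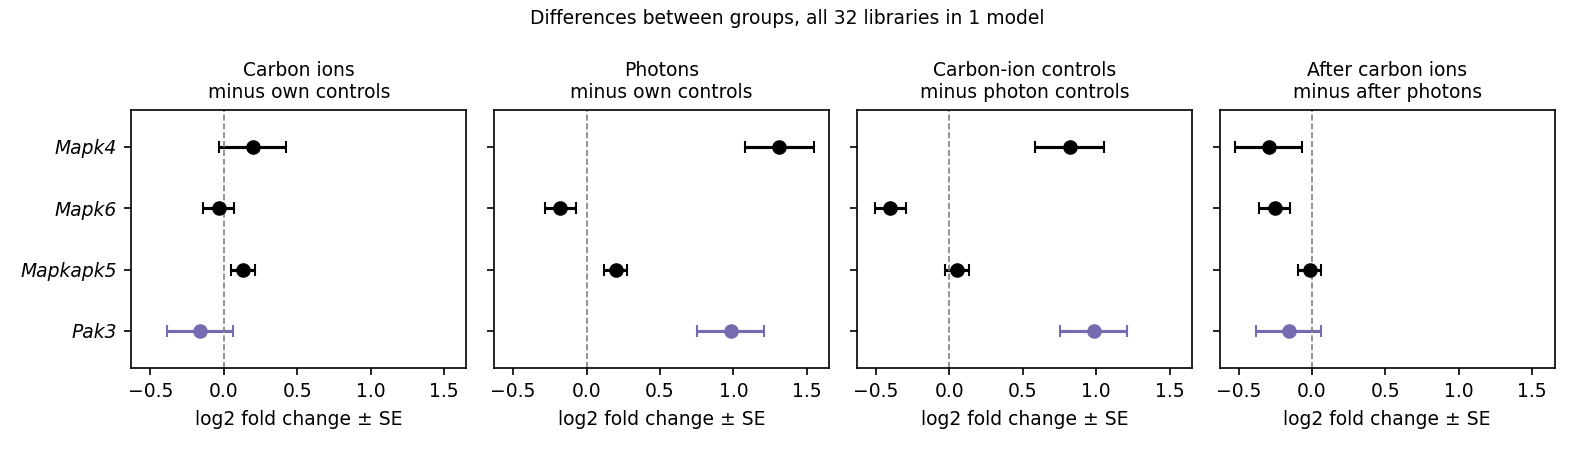
Log2 fold changes of the 3 members and of Pak3 in 4 contrasts, 1 panel each, with standard errors as bars. Mapk4 after photons stands at 1.31, whereas the members' carbon-ion effects lie between -0.03 and 0.20.

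The genes beside Mapk4 on its chromosome had smaller photon differences, in both directions. The nearest tested genes on one side were Me2, Elac1 and Smad4, with photon log2 differences of -0.06, 0.11 and 0.12. On the other side were Ska1, Cxxc1 and Mbd1, with -0.68, -0.05 and 0.10. None of the 6 passed by edgeR's quasi-likelihood test, and their adjusted p values lay between 0.139 and 0.844.

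Mapk6, the ERK3 gene, followed another order, with its highest level in the photon controls. Those libraries had a lowest value of 179, a median of 277 and a highest of 314 CPM (mean 266 ± 42.3, SD, n = 8). After photons the lowest was 168, the median 242 and the highest 274 CPM (mean 235 ± 34.4, SD, n = 8). The photon groups overlapped, yet none of the 8 irradiated libraries reached the control median. As a description, the log2 difference was -0.18 (standard error 0.11), opposite in sign to that of Mapk4. It was -0.11 without photon-irradiated replicate 1 and -0.45 with the neutrophil score as a term.

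In the carbon-ion arm Mapk6 was nearly level. Controls had a lowest value of 165, a median of 196 and a highest of 264 CPM (mean 201 ± 31.3, SD, n = 8). Irradiated libraries had a lowest value of 174, a median of 190 and a highest of 238 CPM (mean 197 ± 22.7, SD, n = 8). The log2 difference was -0.03 (standard error 0.11) and did not pass by edgeR's quasi-likelihood test (adjusted p = 0.997), with 4 of 8 irradiated libraries above the control median. Its sign differed between titles, at 0.03 among M titles and -0.12 among D titles (exact two-sided permutation p = 0.762 and 0.629).

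Mapk6 was lower in the carbon-ion controls than in the photon controls. The log2 difference of -0.40 had a standard error of 0.11 and passed (edgeR quasi-likelihood test, adjusted p = 0.0150). All 8 carbon-ion controls lay below the photon control median, and 5 photon controls lay above the highest carbon-ion control. In this comparison 9.14% of all genes passed, 5.13% higher and 4.01% lower among the carbon-ion controls. The call was lost with M-titled libraries alone (-0.41, adjusted p = 0.0729), with the title letter as a term (-0.38, adjusted p = 0.0640) and with an epithelial marker score as a term (-0.39, adjusted p = 0.0774), all by edgeR. The call was also lost, at an adjusted p between 0.0505 and 0.0538, without carbon-ion control replicate 2, carbon-ion control replicate 7 or photon control replicate 3. Between these control groups 3 of 10 epithelial markers passed, all higher in the carbon-ion controls, with a list median of 0.38 on the log2 scale. Fibroblast markers (2 of 10 passed, all 10 negative, median -0.50) and endothelial markers (2 of 8 passed, all 8 negative, median -0.47) were lower there, like Mapk6. Of 8 mitosis markers 7 were negative too (median -0.24), as were 7 of 8 T cell markers (median -0.74), with none passing. Adipocyte markers (0 of 7 negative) and skeletal muscle markers (2 of 11 negative) mostly went the other way, also with none passing. The part of the fibroblast, endothelial and mitosis markers in the Mapk6 difference was not tested.

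Between the irradiated groups Mapk6 was again lower with carbon ions, with a log2 difference of -0.26 and a standard error of 0.11, which turned to 0.015 with the neutrophil score as a term. The difference of -0.26 did not pass (edgeR quasi-likelihood test, adjusted p = 0.128), in a comparison where 5.08% of all genes did, 3.55% higher and 1.54% lower with carbon ions. None of the 8 carbon-ion irradiated libraries reached the photon-irradiated median. The order of the Mapk6 means was therefore carbon-ion irradiated, carbon-ion controls, photon-irradiated and photon controls, with overlap between each pair of neighbours.

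Mapkapk5 encodes MK5, the shared effector of ERK3 and ERK4. In the photon controls its lowest value was 25.1, its median 29.2 and its highest 36.5 CPM (mean 29.5 ± 3.63, SD, n = 8). After photons the lowest was 30.4, the median 33.6 and the highest 39.4 CPM (mean 33.8 ± 2.71, SD, n = 8). All 8 irradiated libraries lay above the control median, but just 1 lay above the highest control. As a description, the log2 difference was 0.20 (standard error 0.08). It was 0.11 with the neutrophil and 0.12 with the T cell score as a term. The overlapping Adam1a and Gm42878 had photon log2 differences of 0.31 and 0.42, which did not pass by edgeR's quasi-likelihood test (adjusted p = 0.390 and 0.316).

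After carbon ions the Mapkapk5 groups overlapped. Controls had a lowest value of 28.1, a median of 30.2 and a highest of 37.1 CPM (mean 30.5 ± 2.99, SD, n = 8). Irradiated libraries had a lowest value of 29.1, a median of 32.7 and a highest of 39.5 CPM (mean 33.5 ± 3.92, SD, n = 8). With 6 of 8 irradiated libraries above the control median, the log2 difference was 0.13 (standard error 0.08) and did not pass by edgeR's quasi-likelihood test (adjusted p = 0.955). Within M titles it was 0.17 and within D titles 0.09 (exact two-sided permutation p = 0.111 and 0.514). The control arms differed by 0.05 (standard error 0.08, edgeR adjusted p = 0.752) and the irradiated groups by -0.02 (standard error 0.08, edgeR adjusted p = 0.919), and both signs turned under some settings.

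Spread between libraries of a group also set the members apart. The coefficient of variation of Mapk4 was between 28.3% and 38.4% over the 4 groups. For Mapk6 it was between 11.6% and 15.9%, and for Mapkapk5 between 7.995% and 12.3%. Mapk4 rested on 103 to 788 estimated counts a library, the fewest of the 3.

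The other genes of the route were 54 listed relatives, regulators, substrates and downstream kinases, of which 53 were tested and Mapk10 was not. After carbon ions 0 of the 53 passed by edgeR, and 0 by DESeq2 or limma-voom, with 3 at an unadjusted p under 0.05, a rule that 5.75% of all genes met. Their median log2 difference was 0.03, beside 0.01 over all genes. The smallest p values belonged to Pak1, a kinase that activates ERK3 and ERK4 (0.22, standard error 0.09, edgeR adjusted p = 0.728), and Map2k1, the MEK1 gene (0.34, standard error 0.14, edgeR adjusted p = 0.746).

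After photons 1 of the 53 passed, beside 3.81% of all genes (1.71% higher and 2.1% lower), and it was Pak3, a group I p21-activated kinase that can phosphorylate the ERK4 loop. Pak3 had a lowest value of 2.54, a median of 3.19 and a highest of 4.75 CPM in the photon controls (mean 3.35 ± 0.655, SD, n = 8). After photons its lowest value was 3.96, its median 7.34 and its highest 8.81 CPM (mean 6.62 ± 1.80, SD, n = 8). All 8 irradiated libraries lay above the control median and 6 above every control. Pak3 rose by 0.98 on the log2 scale (standard error 0.23, edgeR quasi-likelihood test, adjusted p = 0.0166). The call was lost with a skeletal muscle score (0.88, adjusted p = 0.0779), a neutrophil score (0.61, adjusted p = 0.270) or a T cell score (0.86, adjusted p = 0.0985) as a term in the edgeR fit.

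In the carbon-ion arm the values of Pak3 overlapped between controls and irradiated libraries. The controls of that arm averaged 6.61 ± 2.57 and its irradiated libraries 5.92 ± 1.998 CPM (SD, n = 8 each), a log2 difference of -0.16 with a standard error of 0.22 that did not pass (edgeR adjusted p = 0.997). Pak3 was higher in the carbon-ion than in the photon controls, by 0.98 (standard error 0.23, edgeR adjusted p = 0.00622). This difference and the photon rise share the 8 photon controls. With an epithelial score as a term the control-arm call was lost (0.87, edgeR adjusted p = 0.0588). Across the 32 libraries Pak3 and Mapk4 correlated at a Pearson r of 0.751, and at 0.580 after group means were removed. By group, r was 0.822 for the carbon-ion controls, 0.357 after carbon ions, 0.0978 for the photon controls and 0.857 after photons, which is a description over libraries that share group and depth.

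**Figure D3:**
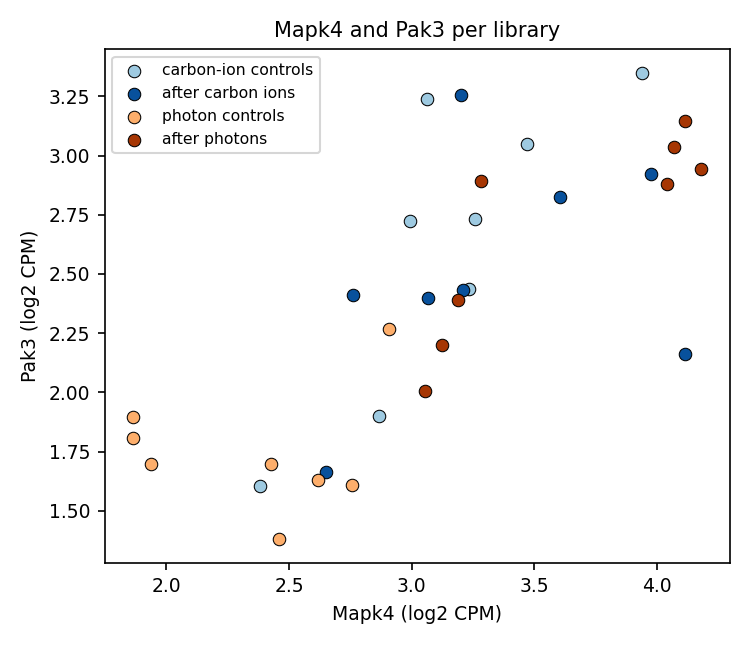
Log2 CPM of Pak3 (vertical axis) against that of Mapk4 (horizontal axis), 1 point a library, coloured by group. The photon controls sit in the lower left, at or below the log2 values of 7.44 CPM for Mapk4 and 4.75 CPM for Pak3. Carbon-ion control replicates 2 and 7 and carbon-ion irradiated replicate 1 lie within the same bounds.

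By role, the photon calls were as follows. Of the relatives (Mapk15, Nlk, Mapkapk2 and Mapkapk3) 0 of 4 passed, and 1 of 5 regulators did. Of the partners and substrates 0 of 13 passed, of the AKT and mTOR genes 0 of 15, of the conventional MAP kinases 0 of 9 and of the MAP kinase kinases 0 of 7, by edgeR's quasi-likelihood test. At an unadjusted p under 0.05, which 21.5% of all genes reached, these 6 lists held 1, 2, 4, 1, 2 and 0 genes. The median over all 53 was -0.00261 on the log2 scale, beside -0.000605 over all genes. Over all 53 genes, 4 passed by DESeq2 and 3 by limma-voom, beside 1 by edgeR, where the same tools called 1550, 701 and 781 of all genes.

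Between the control arms 9 of 53 route genes passed (16.98%, beside 9.14% of all genes), and 19 had an unadjusted p under 0.05, beside 23.1% of all genes. Relative to the photon controls 3 were higher and 6 lower. The higher genes were Pak3, Map2k2, which encodes MEK2 (0.30, adjusted p = 0.0153), and Rheb, the GTPase that activates mTORC1 (0.32, adjusted p = 0.0242). Lower were the p38 family genes Mapk12 (-0.81, adjusted p = 0.00812) and Mapk11 (-0.39, adjusted p = 0.0138), and the JNK1 gene Mapk8 (-0.30, adjusted p = 0.0146). Pak1 was lower as well (-0.33, adjusted p = 0.0153), as were the proline-directed kinase gene Nlk (-0.20, adjusted p = 0.0337) and Tsc1, an inhibitor of mTORC1 signalling (-0.24, adjusted p = 0.0496), all by edgeR's quasi-likelihood test. Leaving out 1 library at a time, the Tsc1 call held in 4 of 32 fits (edgeR adjusted p up to 0.155) and the Nlk call in 10 of 32 (up to 0.142), while those of Pak1 and Rheb held in 29 of 32. Over 13 other settings the Tsc1 call held in 4, the Nlk call in 7, the Rheb call in 10, those of Map2k2 and Mapk8 in 11 each, and those of Mapk11, Mapk12, Pak1 and Pak3 in 12 each. Pak1 and Pak3, which both can act on ERK3 and ERK4, thus differed in opposite directions. With M-titled libraries alone 5 route genes passed, and with an epithelial score as a term 1 did, which was Pak1.

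Mapk12 had the most negative of the 6 lower differences, but with the epithelial score as a term it was -0.51 and did not pass (edgeR adjusted p = 0.176). It had a lowest value of 5.19, a median of 6.66 and a highest of 8.42 CPM in the carbon-ion controls, and 8.33, 12.7 and 13.7 CPM in the photon controls. In the photon-irradiated libraries the values were 5.73, 7.78 and 9.89 CPM, below the control median in all 8, at a log2 difference of -0.59 that did not pass (edgeR adjusted p = 0.0757).

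Between the irradiated groups 2 of 53 route genes passed (3.77%, beside 5.08% of all genes), 12 had an unadjusted p under 0.05 (beside 25.2%), and both were lower with carbon ions. They were Rps6kb1, the S6 kinase downstream of mTORC1 (-0.27, standard error 0.07, edgeR adjusted p = 0.0340), and Rictor, the defining subunit of the mTORC2 complex that phosphorylates AKT (-0.36, standard error 0.10, edgeR adjusted p = 0.0372). In both, none of the 8 carbon-ion irradiated libraries reached the photon-irradiated median. The count was 0 when only these 2 groups were fitted and 5 by DESeq2. Leaving out 1 library at a time, the Rps6kb1 call held in 25 and the Rictor call in 23 of 32 fits, and over 13 other settings in 8 and 6. In this comparison 4 of 8 macrophage, 3 of 5 neutrophil and 1 of 10 epithelial markers passed, all higher with carbon ions, and all 11 muscle markers were positive with a median of 3.15. With the muscle, epithelial or neutrophil score as a term, neither call passed.

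For the difference between the carbon-ion and the photon effect 0 of 53 passed by edgeR, 8 had an unadjusted p under 0.05 (beside 13% of all genes), and the counts were 1 by DESeq2 and 0 by limma-voom. Over all genes 0.0781% passed, 0.0342% with a higher and 0.044% with a lower carbon-ion effect. The smallest p values were those of Pak3 (-1.14, standard error 0.32, edgeR adjusted p = 0.114) and Septin7, a cytoskeletal protein that partners MK5 (0.43, edgeR adjusted p = 0.121).

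**Figure D4:**
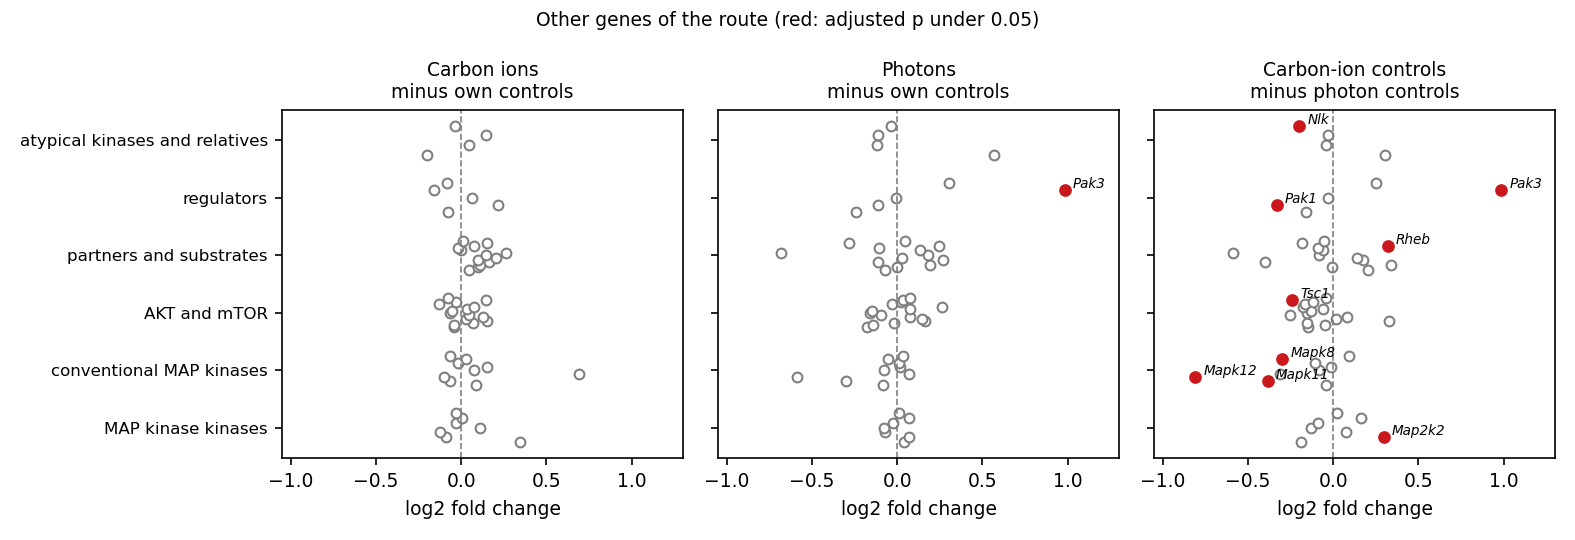
Log2 fold changes of the 53 tested route genes other than the members, in a row for each list, for carbon ions and photons against their own controls and for the control arms. Red named points passed, which are 0 genes after carbon ions, Pak3 after photons and 9 genes between the control arms.

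Cell markers moved alongside the photon difference. All 11 skeletal muscle markers were lower after photons, with a median of -3.10, but none passed, and their summed level ran between 4.70 and 1716 CPM among photon controls and between 1.49 and 449 CPM after photons. Of 5 neutrophil markers 3 passed, all lower, and the sum was 23.5 to 61.5 CPM in controls and 15.01 to 34.7 CPM after photons. Among 8 T cell markers 2 passed lower and 1 higher, with sums of 4.28 to 12.3 and 2.42 to 5.65 CPM. Fibroblast (2 of 10), endothelial (2 of 8), macrophage (2 of 8) and Schwann cell (1 of 5) markers that passed were also lower. None passed among the epithelial (10), mitosis (8), adipocyte (7), keratinocyte (3) or acinar (1) markers. All 8 mitosis markers were negative, with a median of -0.58, as was the photon difference of Mapk6, and their part in it was not tested. With a marker score as a term in the fit, the Mapk4 photon log2 difference was 1.28 (epithelial), 1.11 (muscle), 0.96 (T cell) and 0.86 (neutrophil). Those terms were added after seeing the data. The part of the remaining lists in the Mapk4 difference was not tested. After carbon ions 0 markers passed in any of the 12 lists by edgeR, although all 7 adipocyte markers (median -3.55) and all 8 mitosis markers (median -0.17) were negative.

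Within groups, the members were compared with each other and with the marker scores over all 32 libraries, in 36 relations on group-centred log2 CPM. Mapk4 and Mapkapk5 had a Pearson r of 0.496 (permutation p = 0.00623, adjusted p = 0.0561) and a Spearman rho of 0.518 (permutation p = 0.00433, adjusted p = 0.0390). Without the 2 libraries farthest from the median of Mapk4, r was 0.546 (permutation, adjusted p = 0.102). By group, r was 0.0556 for the carbon-ion controls and 0.948 after carbon ions, 0.494 for the photon controls and 0.321 after photons. Mapk4 with Mapk6 gave r = 0.319 (permutation, adjusted p = 0.304) and Mapk6 with Mapkapk5 r = 0.316 (permutation, adjusted p = 0.309).

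Mapk6 correlated with the mitosis score within groups, at r = 0.678 (permutation p = 0.00029, adjusted p = 0.0104) and rho = 0.537 (adjusted p = 0.0390). It was positive in each group, at 0.593 for the carbon-ion controls, 0.369 after carbon ions, 0.761 for the photon controls and 0.784 after photons. Without the 2 libraries farthest from the median mitosis score, r fell to 0.381 (permutation p = 0.0327, adjusted p = 0.236). Passing the adjusted threshold with Pearson's r thus depended on those 2. Mapk6 with the neutrophil score gave r = -0.535 (permutation, adjusted p = 0.0527) and rho = -0.537 (adjusted p = 0.0390), and without the 2 farthest libraries r = -0.472 (adjusted p = 0.195). Mapk4 with the T cell score gave r = -0.516 (permutation, adjusted p = 0.0527), rho = -0.526 (adjusted p = 0.0390) and, without the 2 farthest libraries, r = -0.486 (adjusted p = 0.156). Mapk4 with the neutrophil score gave r = -0.446 (permutation, adjusted p = 0.103).

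**Figure D5:**
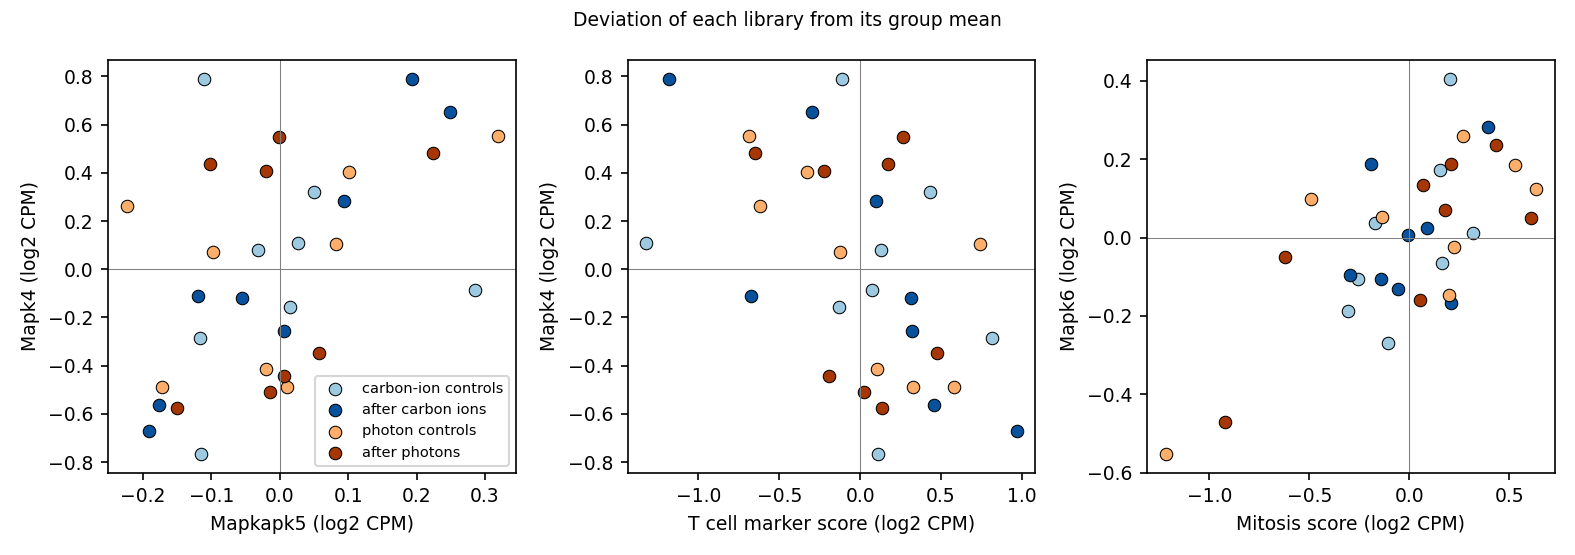
Group-centred log2 CPM of Mapk4 against Mapkapk5 (left) and the T cell score (middle), and of Mapk6 against the mitosis score (right), 1 point a library, coloured by group. The Mapk4 and Mapkapk5 points have r = 0.496, the T cell points r = -0.516, and the Mapk6 and mitosis points r = 0.678, which is 0.381 without the 2 farthest libraries.

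Among the 5 genes most like Mapk4 over the 32 libraries, of 11537 compared, were Dcun1d4 (r = 0.783), Smim14 (0.779), Ids (0.777) and Zfp664 (0.775). Ids, which encodes a lysosomal sulfatase, averaged 73.9 CPM in the photon controls, its lowest group as for Mapk4, and 96.8 CPM in the photon-irradiated libraries. Unlike Mapk4, its highest mean was in the carbon-ion controls, at 105.1 CPM, with 98.6 CPM after carbon ions. After group means were removed the leading 4 genes were Fam117b (0.795), Atf2 (0.783), Efna5 (0.755) and Prkacb (0.748). Of these, Atf2, a stress-responsive transcription factor, had a pooled r of just 0.277. Pak3 was rank 11 by the pooled measure, Mapkapk5 rank 122 (r = 0.634) and Mapk6 rank 7990 (r = -0.111). These likenesses are descriptions across libraries that share group, depth and cell make-up.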

How the data were processed

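Per the submitters' processing notes, the tools were FastQC 0.12.0, Trimmomatic 0.32 and RSEM 1.3.3 on build mm10. The authors deposited estimated counts per gene and library (RSEM divides shared reads among transcripts), and the annotation and strand handling are not given in the sources used here. The tests were planned for whole counts, so the estimated counts were rounded, which changed library totals by at most 0.00403%. Libraries were grouped by their treatment labels, and no column was left without a sample.

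The analysis used edgeR 4.0.16 in R 4.3.3. A minimum count of 10 (filterByExpr) selected the tested genes, and counts were scaled by TMM and fitted in 1 quasi-likelihood model with a coefficient per group over all 32 libraries. P-values were adjusted by Benjamini-Hochberg over all 20474 tested genes, with a threshold of 0.05. Log2 CPM used a prior count of 2. The script was tested on simulated data. DESeq2 1.42.0, limma 3.58.1 (voom), RLE and upper-quartile scaling, no filter, the 2 groups of a contrast alone, M titles alone, the title letter as a term, unrounded values, each library left out and, added after seeing the data, 4 marker scores as terms were the alternatives.

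Marker scores are mean log2 CPM over a list's tested genes. Correlations used group-centred log2 CPM with 100000 two-sided shuffles within groups, adjusted over 36 relations. The acinar list, with 1 tested gene, was left out of them. Where the 2 farthest libraries were left out, distance was from the median of the marker score. In a pair of members it was from the median of the first named. Per-length levels divide CPM by the union of GENCODE M21 exons.

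The members and all lists were chosen with earlier results of these data known. Named genes are the members, route genes that passed in any contrast (or the 2 with the smallest p where none did), the 5 genes with a mean log2 CPM of at least 2 most correlated with Mapk4 before and after removal of group means (predicted genes passed over), and its 3 nearest tested neighbours on each side. The photon p values of the members are not given because that comparison chose Mapk4. Some genes that this rule or the lists hold are not reported here.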

Additional observations from a re-analysis of the deposited data

Results flagged for a closer look

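In 6 of 56 sets of 8 libraries for the 3 members and the 11 route genes that passed in any contrast, 1 library stood apart from the nearest of the others by more than 0.526 of the range of its group, a gap that chance gives in about 1 in 20 groups. Among the members this held for Mapkapk5 in carbon-ion control replicate 4, at 37.1 CPM with the next library at 31.5 CPM. Pak1 reached 84.3 CPM in carbon-ion control replicate 1, with the next at 68.4 CPM. Tsc1 was lowest in carbon-ion control replicate 7, at 34.7 CPM, with the next at 41.8 CPM. Mapk12 stood at 13.6 CPM in carbon-ion irradiated replicate 3, with the next at 8.32 CPM. Nlk stood apart in photon control replicate 6, at 66.1 CPM with the next at 56.7 CPM, and in photon-irradiated replicate 3, at 64.8 CPM with the next at 56.0 CPM. No Mapk4, Mapk6 or Pak3 library met this criterion in any group.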

How the results depend on the processing

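No paired analysis was possible because replicate numbers only follow the order of deposition. The photon log2 difference of Mapk4 ranged from 0.86 (neutrophil score as a term) to 1.35 (upper-quartile scaling), and from 1.23 to 1.41 with each library left out. The 2-group fit gives no difference of effects.

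With the neutrophil score as a term, these log2 differences moved: the Mapk4 difference of effects to -0.59, Mapk4 between irradiated groups to 0.15, Mapk6 after carbon ions to 0.0044, after photons to -0.45 and between irradiated groups to 0.015, and Mapkapk5 between irradiated groups to 0.077. The T cell score gave -0.012 between control arms and 0.014 between irradiated groups for Mapkapk5, and the epithelial score gave -0.0049 between control arms. The difference of effects of Mapkapk5 was 0.035 with the neutrophil and 0.026 with the T cell score. M titles alone gave 0.053 for Mapk6 after carbon ions and 0.0082 for Mapkapk5 between irradiated groups. The Mapk6 difference between control arms was -0.41 with M titles alone, -0.38 with the title letter and -0.39 with the epithelial score, none of them passing. The cause of these changes was not tested.

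Route genes passing after photons (1) numbered 3 with upper-quartile scaling or voom, 4 by DESeq2, 2 with the 2 groups or M titles alone, and 0 with the muscle, neutrophil or T cell score. Between control arms (9) they numbered 5 with M titles and 1 with the epithelial score. Between irradiated groups (2) they numbered 5 by DESeq2 or with the T cell score, 1 with the title letter, and 0 with no filter, the 2 groups alone, or the muscle, epithelial or neutrophil score. For the difference of effects (0), DESeq2 gave 1.

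With each library left out, Mapk6 ranged from -0.075 to 0.032 after carbon ions and from -0.47 to -0.35 between control arms, where it passed in 29 of 32 fits. Mapkapk5 between irradiated groups ranged from -0.048 to 0.030. Route counts ranged from 1 to 5 after photons (5 without photon control replicate 2), from 6 to 9 between control arms and from 0 to 7 between irradiated groups (7 without carbon-ion irradiated replicate 3).

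Over all genes, the 781 photon calls became 1550 by DESeq2, 431 with no filter and 189 to 483 with a marker score, and 239 to 1656 with a library left out. The 1871 calls between control arms became 973 with M titles, 1081 with the title letter and 438 with the epithelial score. The 1041 between irradiated groups ranged from 0 (neutrophil score) to 2159 (without carbon-ion irradiated replicate 3), and the 16 for the difference of effects from 0 to 268. Among the correlations, Mapk4 with Mapkapk5 passed as rho 0.518, and Mapk6 with mitosis did not pass without 2 libraries (0.381).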
